A study of Mus musculus with 26 samples.

Results

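The 37 genes described here are immediate-early and dissociation response genes, a set chosen by name and matched to the count table by Ensembl identifier. All 37 were found among 47730 features, and all 37 were among the 16637 that passed the filter on low counts. They were measured by RNA sequencing in 26 libraries of E-A14, a Her2-expressing cell line from a mammary tumour of the mouse. FVB/N mice aged 6 to 8 weeks received the line in a mammary fat pad. From 2 weeks before implantation the mice were injected 2 times a week with 100 µg each of antibodies against CD4 and CD8a (depleted mice) or of rat IgG2a and rat IgG2b (control mice). Tumours were taken at day 20 from depleted and at day 47 from control mice, so treatment and time cannot be told apart. Every tumour was digested with collagenase and DNase I for 30 min at 37°C. Live Her2-positive cells without CD90, CD105 or CD45 were then sorted by EpCAM, an epithelial adhesion protein, into those with it (EpCAM-positive, written EpCAM+) and those without (EpCAM-negative, written EpCAM-), with 6 libraries per fraction and treatment. The other 2 libraries came from the line in culture, which was neither digested nor sorted. The labels do not say whether these were separate cultures, so the spread between them may be technical. The p-values against them come from a fit of all 26 libraries, whose spread is mostly that of the tumour groups. That spread need not hold for cultures.

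Immediate-early genes are transcribed within minutes of a stimulus, without new protein synthesis, through factors such as SRF and CREB that already sit on their promoters. Growth factors, stress kinases and the enzymatic digestion of tissue all induce them. Their products are mostly transcription factors (the AP-1 subunits of the Fos and Jun families, the Egr and Kruppel-like zinc finger proteins and the Nr4a nuclear receptors) and proteins that end the signal, such as the dual-specificity phosphatases of MAP kinases. The inducible Hsp70 genes Hspa1a and Hspa1b belong to the heat shock response, which HSF1 controls, and are often induced alongside them during tissue handling.

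Promoter sequences are shown for the members whose promoters hold an exact match to a binding motif of CREB or SRF, since these are the factors best known to act on such genes. RefSeq promoters (GRCm38.p6, the reference genome and not the FVB/N strain) were matched for 30 of the 37 genes, giving 39 promoters. The genes not matched were Dusp4, Egr1, Egr3, Fosl1, Ier2, Klf10 and Myc. The 250 bases before each start were searched on both strands. The cyclic AMP response element, TGACGTCA, to which CREB binds, was found in 4 of 39 member promoters (10.3%) and in 1.55% of 32851 promoters in the table. It lay in the promoters of Dusp1, Btg2, Maff and Ppp1r15a, in 60-base windows with the element in capitals, written 5′ to 3′ on the strand of the gene.
Btg2 (chr1:134079288-134079347, minus strand): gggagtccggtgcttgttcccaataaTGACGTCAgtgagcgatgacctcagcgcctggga
Dusp1 (chr17:26508582-26508641, minus strand): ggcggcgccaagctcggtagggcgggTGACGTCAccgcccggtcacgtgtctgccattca
Maff (chr15:79347460-79347519, plus strand): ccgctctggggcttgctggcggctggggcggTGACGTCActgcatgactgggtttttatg
Ppp1r15a (chr7:45526269-45526328, minus strand): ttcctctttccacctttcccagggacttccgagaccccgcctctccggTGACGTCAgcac
The SRF motif known as the CArG box was found in 6 of 39 member promoters (15.4%), which belong to Dusp5, Egr2 and Zfp36, and in 1.47% of all promoters. Several of the 6 are alternative promoters of Egr2, some of which overlap and hold the same box. Counted by gene, the box was found in 3 of 30. Dusp5 has a pair of them side by side, from −82 to −63 relative to the start. The boxes are in capitals.
Dusp5 (chr19:53529038-53529097, plus strand): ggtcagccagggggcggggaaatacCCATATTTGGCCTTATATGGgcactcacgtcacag
Egr2 (chr10:67537772-67537831, plus strand): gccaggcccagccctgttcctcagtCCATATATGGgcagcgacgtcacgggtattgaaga
Zfp36 (chr7:28379252-28379311, minus strand): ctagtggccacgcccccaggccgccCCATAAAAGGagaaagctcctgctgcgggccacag
The AP-1 motif TGANTCA was found in the promoter of 1 member, Csrnp1 (2.56% of member promoters against 6.75% of all). The heat shock element, in the pattern searched, was found in 0 of 39 (0.466% of all). Promoters of Hspa1a and Hspa1b were among those searched, and elements of another form would have been missed. The TATA box TATAAA was found in 3, those of Fos, Gadd45b and Nr4a2 (7.69% against 12.4%). The motifs were searched independently of each other. For all of them, variant sites and sites further than 250 bases from the start would have been missed. Members without a match may hold such sites. A match is a description of the sequence, not evidence that the factor binds there.

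The level of each gene is given as CPM, its count relative to a library size that edgeR's TMM factors adjust. CPM is not corrected for transcript length, so levels are compared between samples and not between genes. Averaged over the 37 genes on the log2 scale, the cultures lay at 4.97 and 4.98. EpCAM+ cells of depleted tumours lay at 6.44 ± 0.18 (SD, n = 6) and those of control tumours at 7.47 ± 0.34. The EpCAM- cells lay at 7.45 ± 0.27 in depleted and 7.54 ± 0.23 in control tumours. The tumour cells thus ordered as EpCAM+ depleted below the other 3 groups, whose means differed by less than their SDs. All 24 tumour libraries lay above both cultures, and the highest EpCAM+ library of depleted tumours (6.65) lay below the lowest of any other tumour group (6.92). As a share of all counts the 37 genes made up 0.368% in the cultures, 1.2% in EpCAM+ and 1.97% in EpCAM- cells of depleted tumours. In control tumours the shares were 2.39% and 1.99%. These are bulk libraries, in which fewer cells that express a gene and less RNA per cell cannot be told apart.

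**Figure D1:**
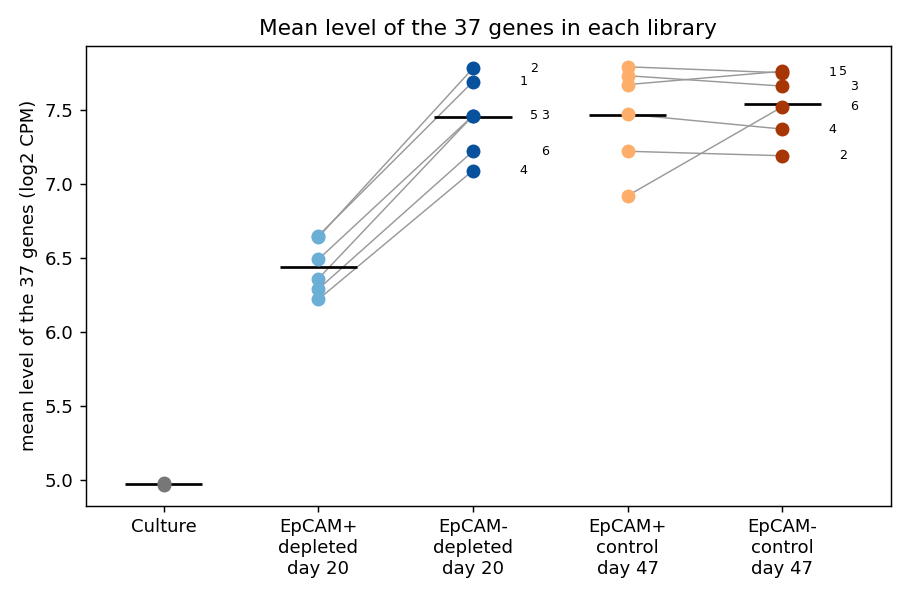
Mean log2 CPM of the 37 genes (vertical axis) in each library, by group (horizontal axis). Points are libraries, black bars are group means, and grey lines join the fractions with the same number, which is printed at the right. All 6 lines rise in depleted tumours, from 6.22 to 6.65 on the left to 7.09 to 7.78 on the right, and those of control tumours are mostly flat, apart from number 6.

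Of the 37 genes, 30 had their lowest mean of the 4 tumour groups in EpCAM+ cells of depleted tumours (81.1%, against 26.5% of all tested features), and 0 had their highest there (24.4% of all features). The other 7 departed from this. Fosl1 and Dusp4 were lowest in EpCAM+ cells of control tumours, Myc and Dusp2 in EpCAM- cells of control tumours, and Gadd45b, Hspa1a and Hspa1b in EpCAM- cells of depleted tumours. The heat map of all genes and libraries shows both the common pattern and these exceptions. It also shows that Fosl1 and Myc stood below the mean of the cultures in all tumour libraries, Myc only slightly in some.

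**Figure D2:**
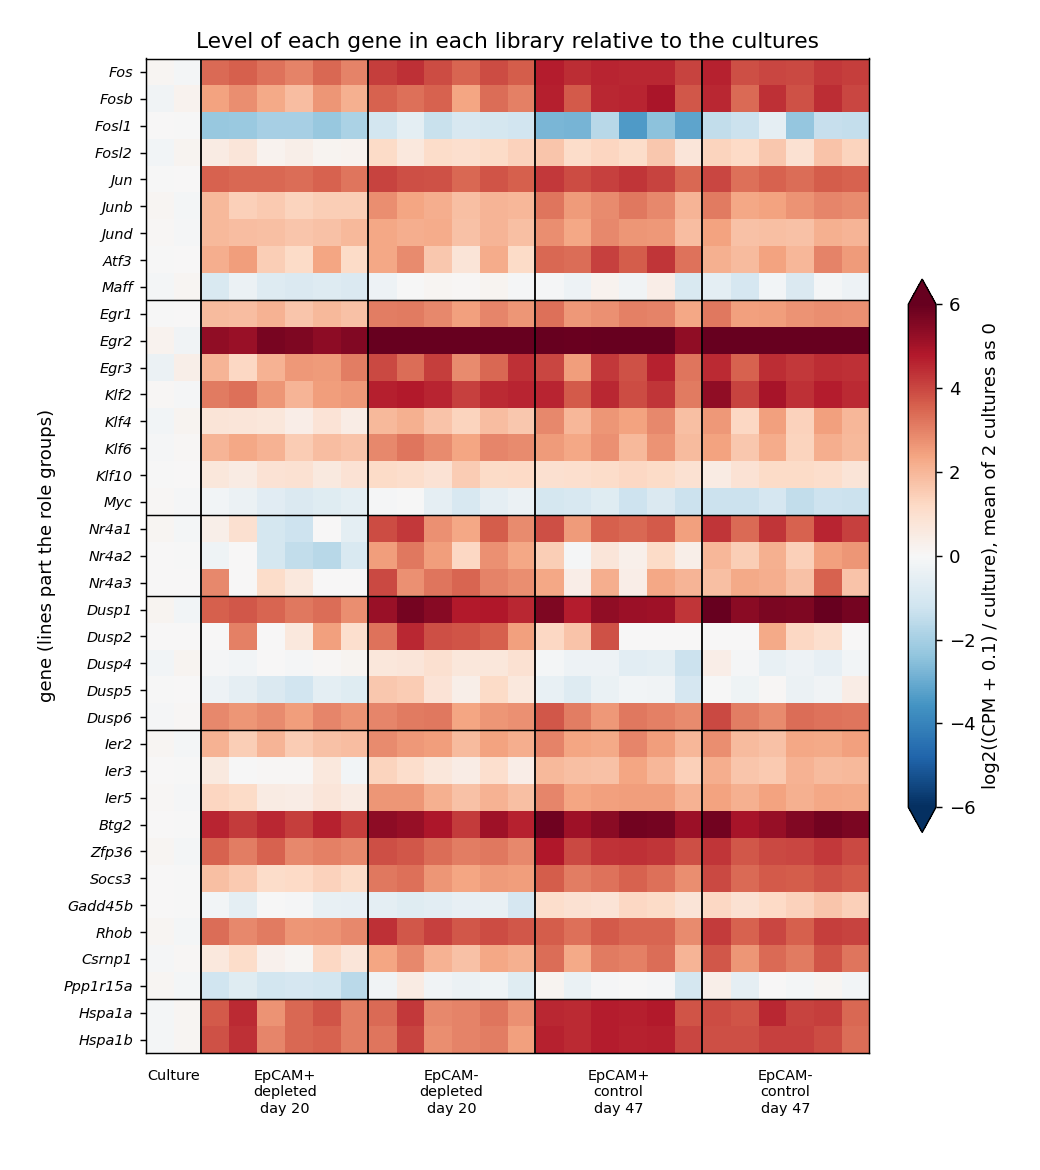
Level of each of the 37 genes (rows, parted by role) in each of the 26 libraries (columns, by group) as log2 of CPM + 0.1 relative to the mean of the 2 cultures. Red is above and blue below the cultures, and colours stop at 6 in either direction, a limit that Egr2 passes in most tumour libraries. Fosl1 is blue in all tumour libraries and Myc is blue to near white in them. Nr4a1 and Nr4a2 are near white or blue in EpCAM+ depleted libraries and red in EpCAM- ones.

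In depleted tumours most of the set was higher in the EpCAM- than in the EpCAM+ cells. By edgeR's quasi-likelihood test with Benjamini-Hochberg adjustment over all features, 28 of the 37 rose, 1 fell and 8 did not pass at an adjusted p of 0.05. Of all tested features 28.5% were called, 14.3% higher and 14.3% lower. The median log2 fold change of the 37 was 0.86, against 0.01 over all features. In 17 genes every EpCAM- library lay above every EpCAM+ one, which held for 7.1% of all features. The rise was seen across the numbered libraries, with 31 to 34 of 37 genes higher in the EpCAM- member of each of the 6 pairs. This share was not computed over all features. With the library number as a block 29 genes were called higher and 3 lower, where 17.2% and 18.3% of the features in that fit were.

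The Nr4a nuclear receptors, which act without a known ligand, showed the steepest rises of the members called, and all 3 passed. Nr4a1 stood at 9.91 to 45.7 CPM (median 19.6) in EpCAM+ and 118 to 452 CPM (median 230.2) in EpCAM- cells of depleted tumours, a log2 fold change of 3.50 ± 0.38 (adjusted p = 7.32e-08). The EpCAM+ libraries spread around the cultures, at 21.8 and 25.3 CPM, while all 6 EpCAM- libraries stood higher. Nr4a2 stood at 2.62 to 8.52 CPM (median 4.22) in EpCAM+ and 19.9 to 75.9 CPM (median 47.5) in EpCAM- cells, with a log2 fold change of 3.31 ± 0.33 (adjusted p = 1.92e-08). Its groups did not overlap either. Nr4a3 was close to the detection limit, at 0 to 0.644 CPM (median 0.0268) and 0.567 to 1.47 CPM (median 0.757). Its log2 fold change of 2.62 ± 0.85 (adjusted p = 0.022) rests on few counts. It became 4.40 without EpCAM+ library 1, the only one of that group above the lowest EpCAM- value.

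Among the dual-specificity phosphatases, Dusp5, a nuclear phosphatase of ERK, and Dusp1, which acts on p38, JNK and ERK in the nucleus, both rose. Dusp5, whose promoter holds the pair of CArG boxes printed above, stood at 83.0 to 151 CPM (median 118) in EpCAM+ and 235 to 560.4 CPM (median 367) in EpCAM- cells, with a log2 fold change of 1.75 ± 0.20 (adjusted p = 1.06e-07). Dusp1, whose promoter holds the cyclic AMP response element, stood at 173 to 336 CPM (median 272) in EpCAM+ and 577 to 1338 CPM (median 825) in EpCAM- cells, with a log2 fold change of 1.76 ± 0.21 (adjusted p = 2.62e-07). In both, every EpCAM- library exceeded every EpCAM+ one. Dusp4, another nuclear ERK phosphatase, stood at 107 to 135 CPM (median 117) in EpCAM+ and 189.9 to 229 CPM (median 194) in EpCAM- cells, with a log2 fold change of 0.77 ± 0.15 (adjusted p = 0.000188), again without overlap. Dusp6, the cytoplasmic ERK phosphatase, had a log2 fold change of 0.10 ± 0.17 (adjusted p = 0.744), and Dusp2, which had at most 2.23 CPM in any library, one of 2.45 ± 1.18 (adjusted p = 0.13). Neither passed. With the library number as a block, Dusp2 was called higher, at 3.10 (adjusted p = 0.0448).

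Of the early growth response and Kruppel-like factors, all 7 rose, and Myc alone of this role group did not pass. Klf2, a Kruppel-like factor best known from endothelium and lymphocytes, stood at 48.9 to 115 CPM (median 72.2) in EpCAM+ and 203 to 321 CPM (median 279) in EpCAM- cells, with a log2 fold change of 1.78 ± 0.23 (adjusted p = 8.51e-07). Egr1, the founding member of its family and a classic SRF target, stood at 841 to 1124 CPM (median 978) in EpCAM+ and 1464 to 2359 CPM (median 2011) in EpCAM- cells, with a log2 fold change of 1.01 ± 0.14 (adjusted p = 2.53e-06). Egr2, whose promoter also holds a CArG box, stood at 24.2 to 34.7 CPM (median 29.8) in EpCAM+ and 64.9 to 116 CPM (median 97.7) in EpCAM- cells, with a log2 fold change of 1.67 ± 0.25 (adjusted p = 9.39e-06). In these 3 genes, and in Klf4 and Klf6, the fractions did not overlap. Log2 fold changes of the others that passed were 1.46 for Egr3, 1.14 for Klf4, 0.91 for Klf6 and 0.41 for Klf10. Myc stood at 136 to 221 CPM (median 162) and 129 to 243 CPM (median 184), a log2 fold change of 0.17 ± 0.13 (adjusted p = 0.384).

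The AP-1 genes changed less steeply. Of 9 AP-1 and related bZIP genes 7 rose, with a median log2 fold change of 0.67. Fosl2 stood at 36.6 to 54.2 CPM (median 40.0) in EpCAM+ and 51.4 to 86.6 CPM (median 71.2) in EpCAM- cells, with a log2 fold change of 0.72 ± 0.15 (adjusted p = 0.000631). Fosl1, the Fos relative Fra-1, stood at 43.7 to 56.8 CPM (median 49.5) in EpCAM+ and 85.3 to 142 CPM (median 101) in EpCAM- cells, with a log2 fold change of 1.09 ± 0.23 (adjusted p = 0.000738). Fosl1 and the small Maf protein gene Maff were those of the 9 whose fractions did not overlap. Fos stood at 1997 to 3025 CPM (median 2526) in EpCAM+ and 2842 to 5285 CPM (median 3829) in EpCAM- cells, with a log2 fold change of 0.66 ± 0.15 (adjusted p = 0.000982). Jun, its partner in AP-1, stood at 1490.3 to 1901 CPM (median 1744) in EpCAM+ and 1763 to 2685 CPM (median 2212) in EpCAM- cells, with a log2 fold change of 0.34 ± 0.12 (adjusted p = 0.04). Jun lost its call without any 1 of 9 of the 12 libraries (EpCAM+ libraries 2 to 6 and EpCAM- libraries 1, 2, 3 and 5), with log2 fold changes of 0.26 to 0.35 and adjusted p of 0.0524 to 0.135, and without the filter on low counts (0.33, adjusted p = 0.0635). In Fos and in Jun some EpCAM+ libraries reached the EpCAM- range. Atf3, a repressor of the same protein class that many stresses induce, was spread widely in both fractions. It stood at 157 to 399.8 CPM (median 260.3) and 119.9 to 501 CPM (median 270.4), with a log2 fold change of 0.06 ± 0.29 (adjusted p = 0.917).

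Among the remaining early response genes and feedback regulators 8 of 10 rose. Socs3, which restrains JAK-STAT signalling, stood at 159 to 256 CPM (median 181) in EpCAM+ and 380.4 to 732 CPM (median 449) in EpCAM- cells, with a log2 fold change of 1.42 ± 0.16 (adjusted p = 1.27e-07). Ier5 stood at 64.6 to 113 CPM (median 72.3) in EpCAM+ and 159 to 292 CPM (median 201) in EpCAM- cells, with a log2 fold change of 1.41 ± 0.17 (adjusted p = 2.17e-07). Rhob, a small GTPase of endosomes and actin, stood at 126 to 203 CPM (median 150.1) in EpCAM+ and 263 to 426 CPM (median 284) in EpCAM- cells, with a log2 fold change of 1.01 ± 0.15 (adjusted p = 8.43e-06). None of the 3 overlapped between the fractions. Csrnp1 (1.56), Ppp1r15a, which recruits a phosphatase to restart translation after stress (0.94), Ier3 (0.63), Ier2 (0.62) and Btg2, an inhibitor of proliferation (0.56), also rose on the log2 scale. Zfp36, which speeds the decay of inflammatory mRNAs, did not pass (0.19 ± 0.17, adjusted p = 0.442). Gadd45b, a stress gene that acts on the p38 pathway, was the 1 member that fell. It stood at 33.4 to 49.4 CPM (median 40.6) in EpCAM+ and 25 to 36.3 CPM (median 32.8) in EpCAM- cells, with a log2 fold change of −0.36 ± 0.12 (adjusted p = 0.0264). The Gadd45b call was lost without EpCAM+ library 1, 3 or 4 or EpCAM- library 6 (−0.34 to −0.30, adjusted p of 0.0547 to 0.0745), and that of Btg2 without EpCAM- library 1 (0.44, adjusted p = 0.0622). Of the 7 genes with a printed promoter 6 rose in this contrast and Zfp36 did not pass, where 28 of all 37 members rose. A relation between the motifs and the change was not tested.

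Neither Hsp70 gene passed in this contrast. Hspa1a stood at 19.8 to 67.4 CPM (median 36.2) in EpCAM+ and 20.3 to 58.0 CPM (median 25.6) in EpCAM- cells of depleted tumours, with a log2 fold change of −0.31 ± 0.26 (adjusted p = 0.426). Hspa1b stood at 189 to 523 CPM (median 281) in EpCAM+ and 141 to 418 CPM (median 205) in EpCAM- cells, with a log2 fold change of −0.42 ± 0.22 (adjusted p = 0.173). Both were called lower with the library number as a block, at −0.31 (adjusted p = 0.0189) and −0.44 (adjusted p = 3.79e-05). Their transcripts share 1716 stretches of 50 bases, the read length, which is 58.8% of those in Hspa1a and 62.3% of those in Hspa1b, so the split of reads between them is uncertain.

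**Figure D3:**
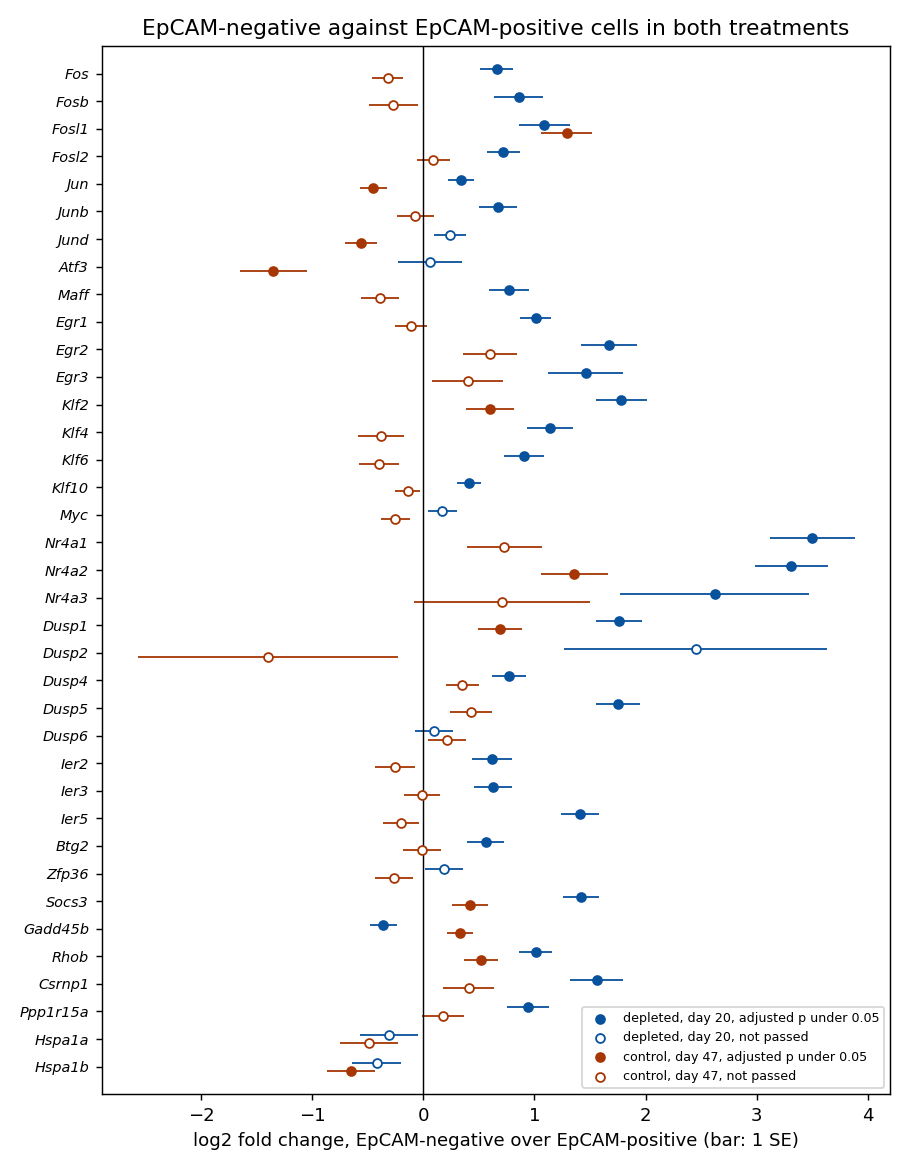
Log2 fold change of EpCAM- over EpCAM+ cells (horizontal axis, bar 1 SE) for each of the 37 genes (vertical axis, by role), in depleted (blue) and control tumours (brown). Filled points have an adjusted p under 0.05. Blue points lie mostly to the right of 0, with Nr4a1 at 3.50, and brown points lie on both sides, from Dusp2 at −1.40 to Nr4a2 at 1.36.

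In control tumours 11 of the 37 genes were called in the same contrast without a block, a share near that of all features. By the same test 7 rose, 4 fell and 26 did not pass, where 27.9% of all features were called, 13.4% higher and 14.5% lower. The median log2 fold change was −0.01, as over all features. The 7 that rose were Fosl1 (1.29 ± 0.23, adjusted p = 0.000135), Nr4a2 (1.36 ± 0.30, adjusted p = 0.00122), Dusp1 (0.69 ± 0.20, adjusted p = 0.0117), Klf2 (0.60), Rhob (0.52), Socs3 (0.42) and Gadd45b (0.33). Fosl1 stood at 20.4 to 66.8 CPM (median 31.4) in EpCAM+ and 43.6 to 148 CPM (median 80.7) in EpCAM- cells, with overlap between the fractions. All of the 7 but Gadd45b were also called higher in depleted tumours. The 4 that fell were Atf3, Hspa1b, Jund and Jun. Atf3 stood at 670.3 to 1385 CPM (median 827) in EpCAM+ and 265 to 558 CPM (median 342) in EpCAM- cells, with a log2 fold change of −1.35 ± 0.30 (adjusted p = 0.00116). It was the only 1 of the 37 whose fractions did not overlap in control tumours, where every EpCAM- library lay below the EpCAM+ ones in 7.1% of all features and above them in 6.31%. Hspa1b stood at 404 to 663 CPM (median 619) in EpCAM+ and 257 to 437 CPM (median 375) in EpCAM- cells, with a log2 fold change of −0.65 ± 0.22 (adjusted p = 0.0314). For Jund the log2 fold change was −0.56 ± 0.14 (adjusted p = 0.00307). Jun stood at 1770.2 to 3148 CPM (median 2726) in EpCAM+ and 1591 to 2575 CPM (median 1877) in EpCAM- cells, with a log2 fold change of −0.45 ± 0.12 (adjusted p = 0.00692). Hspa1a did not pass (−0.49 ± 0.26, adjusted p = 0.16).

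With the library number as a block more of the genes were called in control tumours, 11 higher and 10 lower, where 16.6% and 17.3% of the features in that fit were. The 11 calls without the block were among these 21. The genes added as higher were Nr4a1 (0.75, adjusted p = 0.000581), Egr2 (0.62, 0.00962), Csrnp1 (0.43, 0.013) and Dusp4 (0.34, 0.0319). Those added as lower were Hspa1a (−0.52, 0.000559), Klf6 (−0.43, 0.000931), Klf4 (−0.44, 0.0102), Fos (−0.35, 0.00377), Maff (−0.40, 0.0492) and Myc (−0.26, 0.00268). In all 6 numbers the EpCAM- library was the higher one for 10 genes, Nr4a1, Egr2 and Csrnp1 among them, and the lower one for 4, Atf3, Hspa1a, Hspa1b and Myc. The share of all features that agree in all 6 numbers was not computed, so these counts describe single genes and not the set. By the tests above Fos and Jun rose in depleted tumours and were called lower in control tumours, Fos only with the block.

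The control libraries with number 6 stood apart from the others in this contrast. In numbers 1 to 5, 15 to 18 of the 37 genes were higher in the EpCAM- library, and in number 6, 30 were. Such counts were not made over all features. EpCAM+ library 6 had the lowest mean level of its group, 6.92 against 7.22 to 7.79. Its summed level of 10 fibroblast markers was also the lowest of its group, at 1229 CPM against 2337 to 3240 CPM. So were its sums of macrophage (179.6 CPM against 276 to 365 CPM), neutrophil, T and NK, B, dendritic, endothelial and erythroid cell markers. Those of pericyte and adipocyte markers were not. The part of these differences in its member levels was not tested. Without both libraries of this number, an alternative chosen after seeing the data, 3 genes rose and 5 fell: Klf2, Rhob, Socs3 and Gadd45b lost their calls (0.27 to 0.51, adjusted p of 0.0517 to 0.149) and Maff gained one (−0.54, adjusted p = 0.0193). The count that rose was 4 without EpCAM+ library 6, EpCAM+ library 2 or EpCAM- library 1. Leaving out 1 library also ended 4 of the 11 calls, all of them near the threshold. Klf2 was lost without any 1 of 7 of the 12 libraries (log2 fold changes of 0.43 to 0.63), Socs3 without any 1 of 9 (0.32 to 0.44), Gadd45b without any 1 of 7 (0.25 to 0.33) and Hspa1b without EpCAM+ library 3, 4 or 5 or EpCAM- library 6 (−0.64 to −0.56), with adjusted p of 0.051 to 0.162. Without the filter on low counts the same 4 lost their calls (adjusted p of 0.0559 to 0.0943). Gadd45b and Socs3 also did with median-of-ratios factors (adjusted p of 0.05 and 0.0583), and Gadd45b and Klf2 with only the groups compared in the fit (0.068 and 0.0986).

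The contrast itself differed between the treatments for 24 of the 37 genes. The difference was taken as the change in control minus the change in depleted tumours, in the same edgeR fit. It was below 0 for 23 genes and above 0 for 1, where 9.33% and 8.68% of all features were called (18% in all). The median difference was −0.98 on the log2 scale, against −0.05 over all features. Nr4a1 differed most among those that passed, by −2.77 ± 0.50 (adjusted p = 0.000244), followed by Nr4a2 (−1.95 ± 0.43, adjusted p = 0.00212), Ier5 (−1.61 ± 0.23, adjusted p = 1.57e-05), Klf4 (−1.52 ± 0.30, adjusted p = 0.000603) and Atf3 (−1.41 ± 0.42, adjusted p = 0.019). For Fos the difference was −0.98 ± 0.21 (adjusted p = 0.0012), for Egr1 −1.12 ± 0.20 (adjusted p = 0.000176) and for Dusp1 −1.07 ± 0.29 (adjusted p = 0.00982). Gadd45b was the exception, at 0.69 ± 0.17 (adjusted p = 0.00502), since it was lower in EpCAM- cells of depleted and higher in those of control tumours. The difference did not pass for Fosl1 (0.20 ± 0.33, adjusted p = 0.744), Dusp6 (0.11 ± 0.24, adjusted p = 0.817), Hspa1a (−0.19 ± 0.36, adjusted p = 0.791), Hspa1b (−0.23 ± 0.32, adjusted p = 0.693) or Myc (−0.42 ± 0.19, adjusted p = 0.131). Some calls near the threshold were lost when 1 library was left out. That of Ppp1r15a was lost without any 1 of 16 of the 24 libraries (−0.79 to −0.60), Fosl2 without any 1 of 15 (−0.63 to −0.53), Junb without any 1 of 13 (−0.74 to −0.59) and Egr2 without any 1 of 5 (−1.01 to −0.83), with adjusted p of 0.0516 to 0.0874. Without the filter on low counts these 4 and Atf3 (−1.40, adjusted p = 0.0555) were not called (adjusted p of up to 0.0869), which left 18 differences below 0 and 1 above. With the library number as a block 28 were below 0 and 1 above, where 11.8% of the features in that fit were called in each direction. The genes added were Myc (−0.41, adjusted p = 0.00222), Ier3 (−0.64, 0.00526), Btg2 (−0.54, 0.019), Rhob (−0.49, 0.0288) and Zfp36 (−0.42, 0.0358).

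Control tumours were then set against depleted tumours within each fraction. The depleted libraries had 17559520 to 25601999 counts and the control libraries 26895429 to 38740143, so depth differs with treatment and day, and its part was not tested. These comparisons share libraries with the contrasts above. In EpCAM+ cells 30 of 37 genes were higher in control tumours, 2 were lower and 5 did not pass, where 22.4% and 17.6% of all features were called (40% in all). The median log2 fold change was 1.00, against 0.02 over all features. In 16 genes every control library lay above every depleted library, as in 12.5% of all features.

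All 10 of the early response genes and feedback regulators, 8 of the 9 AP-1 and related genes and 7 of the 8 Egr, Kruppel-like and Myc genes were higher. Nr4a1 stood at 130.3 to 343 CPM (median 270.1) in EpCAM+ cells of control tumours, with a log2 fold change over depleted tumours of 3.42 ± 0.38 (adjusted p = 6.54e-08). Fos stood at 4193 to 6607 CPM (median 5828), with a log2 fold change of 1.19 ± 0.15 (adjusted p = 3.26e-07), and its lowest control library was above the highest depleted one. Atf3, at its highest in this group, had a log2 fold change of 1.81 ± 0.30 (adjusted p = 2.74e-05), and its 6 control libraries all exceeded the depleted ones. Further increases on the log2 scale were 2.21 for Csrnp1, 2.04 for Fosb, 1.90 for Socs3, 1.85 for Klf4, 1.70 for Dusp1, 1.69 for Ier3 and 1.68 for Ier5. Hspa1a (0.87 ± 0.26, adjusted p = 0.00846) and Hspa1b (0.94 ± 0.23, adjusted p = 0.00157) were also higher. Both genes that were lower, Myc (−0.46 ± 0.13, adjusted p = 0.00707) and Dusp4 (−0.49 ± 0.15, adjusted p = 0.00873), changed by less. Fosl1, Nr4a3, Dusp2, Dusp5 and Dusp6 did not pass. Klf6 (0.45 ± 0.18, adjusted p = 0.0427) lost its call without any 1 of 8 of the 12 libraries, with log2 fold changes of 0.37 to 0.47 and adjusted p of 0.0504 to 0.109, and without the filter on low counts (adjusted p = 0.061).

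In EpCAM- cells the same comparison was mixed. Of the 37 genes 12 were higher in control tumours, 6 were lower and 19 did not pass, where 23.2% and 21.8% of all features were called (45% in all) and the counts of the set were not far from that background. The median log2 fold change was 0.17. Gadd45b rose most. Its EpCAM- cells stood at 25 to 36.3 CPM (median 32.8) in depleted and 94.2 to 161 CPM (median 125) in control tumours, without overlap and with a log2 fold change of 1.96 ± 0.12 (adjusted p = 1.75e-12). Csrnp1 (1.06), Ier3 (1.05), Socs3 (0.90), Fosb (0.90), Hspa1b (0.71) and Hspa1a (0.68) were among the others that rose. The 6 that fell were Dusp5 (−1.12 ± 0.19, adjusted p = 2.91e-05), Dusp4 (−0.91), Myc (−0.87), Klf6 (−0.86), Maff (−0.48) and Dusp2 (−3.48, or −4.58 without EpCAM- control library 3). Dusp5 and Dusp4 thus had their highest group means of the series in EpCAM- cells of depleted tumours. Fos stood at 3678 to 6172 CPM (median 4231) in EpCAM- cells of control tumours, with a log2 fold change of 0.21 ± 0.14 (adjusted p = 0.248). Egr1 stood at 1459 to 2445 CPM (median 1782), with −0.11 ± 0.14 (adjusted p = 0.526), and Nr4a1 at 248 to 561 CPM (median 433), with 0.65 ± 0.34 (adjusted p = 0.128). For these 3 the treatments overlapped. Leaving out single libraries ended the calls of Hspa1a (any 1 of 7 of the 12, 0.55 to 0.67), Maff (EpCAM- depleted library 5 or control 1, 2 or 4, −0.46 to −0.40), Dusp6 (depleted 4 or 5 or control 1, 0.29 to 0.43) and Junb (control 1, 0.44), with adjusted p of 0.0505 to 0.128. Hspa1a and Maff were also not called without the filter on low counts (adjusted p of 0.0514 and 0.06).

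**Figure D4:**
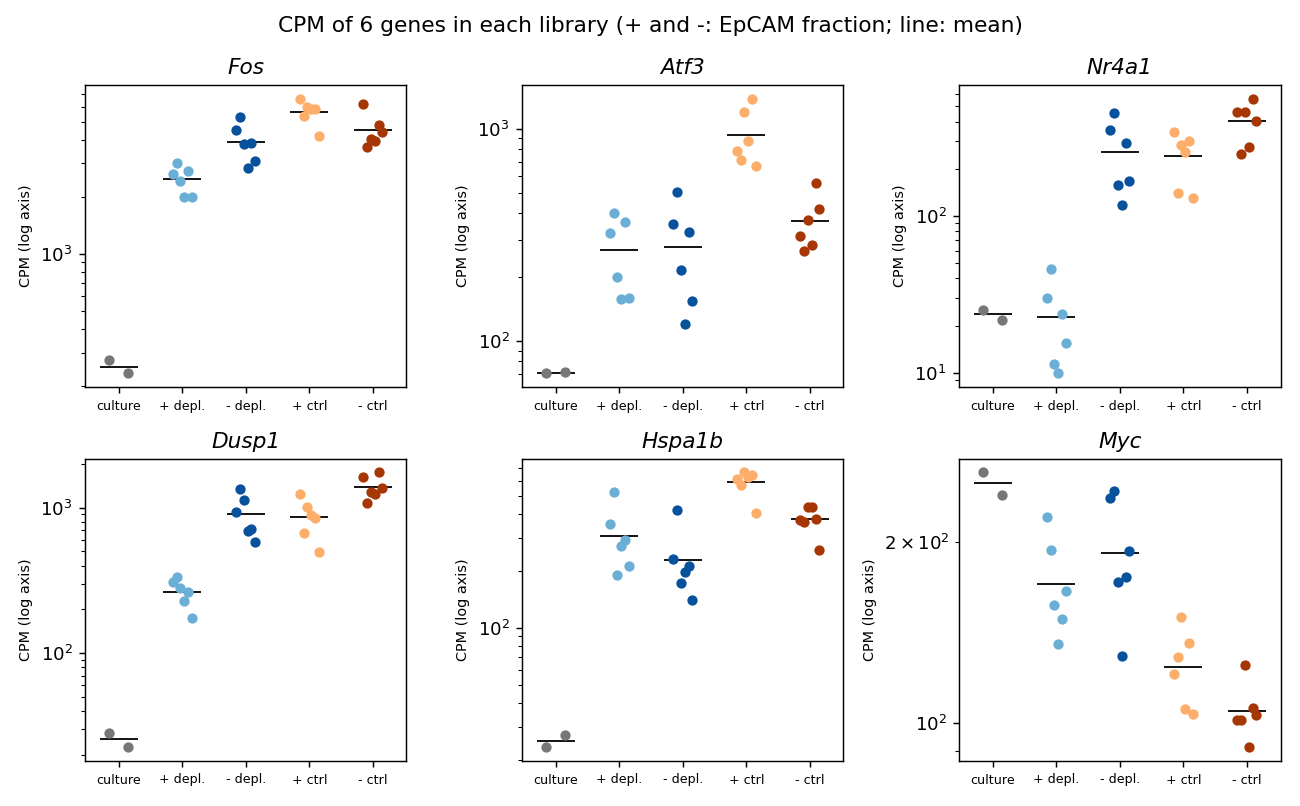
CPM (vertical log axis) of 6 genes in each library of the 5 groups (horizontal axis, + and − for the EpCAM fractions). Points are libraries and lines are means. Fos, Atf3, Dusp1 and Hspa1b lie above the cultures in every tumour library, Nr4a1 lies at the culture level in EpCAM+ depleted libraries, and Myc is highest in the cultures.

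Against the cultures most members were higher in each tumour group. The tumour libraries differ from the cultures by growth in a mouse, digestion, sorting and the cells that pass the gate, and these cannot be told apart. The 4 comparisons share the same 2 cultures. In EpCAM+ cells of depleted tumours 23 genes were higher and 5 lower (20.9% and 18.6% of all features, 39.5% together), with a median log2 fold change of 1.83. In EpCAM- cells of depleted tumours 32 were higher and 2 lower (21.7% and 20.6% of all features, 42.3% together), with a median of 2.81. In control tumours 29 were higher and 3 lower in EpCAM+ cells (27.7% and 22.4% of all features, 50.1% together, with a median of 2.95) and 30 were higher and 2 lower in EpCAM- cells (26.5% and 24.2%, 50.7% together, with a median of 2.76). Over all features the medians were 0.08 to 0.17.

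The size of these differences varied widely among the genes. Fos stood at 233 and 273 CPM in the cultures, and its log2 fold changes were 3.29 and 3.95 in EpCAM+ and EpCAM- cells of depleted tumours, with 4.48 and 4.16 in those of control tumours (largest adjusted p = 1.48e-10). Jun, at 157 and 166 CPM in the cultures, was higher by 3.42, 3.76, 4.03 and 3.58 in the same order (largest adjusted p = 4.53e-12). The lowest of these 4 rises of Jun fell in the group where most members had their lowest mean. Egr1, at 266 and 272 CPM, was higher by 1.86, 2.87, 2.86 and 2.76. Egr2 was nearly absent from the cultures, at 0.486 and 0.673 CPM, and was higher by 5.68, 7.35, 6.73 and 7.33. These are the largest fitted changes among members with counts in both cultures. Btg2 was higher by 4.39, 4.95, 5.53 and 5.52, and Dusp1, at 22.6 and 28.4 CPM, by 3.38, 5.14, 5.08 and 5.77. Dusp6 changed by 2.76, 2.85, 3.12 and 3.33, and was called in all 4 groups, although its EpCAM contrast passed in neither treatment.

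The Hsp70 genes were higher in all 4 groups as well. Hspa1a stood at 2.66 and 3.22 CPM in the cultures and was higher by 3.68, 3.37, 4.55 and 4.05 on the log2 scale (largest adjusted p = 1.76e-06). Hspa1b stood at 23.4 and 27.0 CPM and was higher by 3.60, 3.18, 4.54 and 3.89 (largest adjusted p = 2.95e-07). In each of them the smallest rise was that of EpCAM- cells of depleted tumours, where most other members were high.

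Both Nr4a3 and Dusp2 had 0 counts in each culture. The mean of Nr4a3 was at least 8.98-fold higher in EpCAM- cells of depleted tumours, 2.65-fold in EpCAM+ and 4.39-fold in EpCAM- cells of control tumours. These values are taken against a floor of 3 counts per library (0.0962 CPM). EpCAM+ control libraries 2 and 4 lay below this floor, at 0.0329 and 0.0322 CPM, so 2.65-fold holds for the mean alone. In EpCAM+ cells of depleted tumours Nr4a3 was called as well, with overlap, and lost its call without EpCAM+ library 1 (3.18, adjusted p = 0.119). Dusp2 was at least 12.6-fold higher in EpCAM- cells of depleted tumours. Its fitted change did not pass in the other 3 groups, where single libraries had 0 counts as well.

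Some members went against the set. Fosl1 was highest in the cultures, at 209 and 221 CPM, and lower in every tumour group. Its log2 fold changes were −2.11 ± 0.30 (adjusted p = 2.8e-06) in EpCAM+ and −1.02 ± 0.31 (adjusted p = 0.00891) in EpCAM- cells of depleted tumours, against −2.60 ± 0.30 (adjusted p = 4.9e-08) and −1.31 ± 0.30 (adjusted p = 0.000762) in control tumours. Every tumour library lay below both cultures. Myc, at 239.8 and 262 CPM in the cultures, was lower in EpCAM+ cells of depleted tumours (−0.56 ± 0.18, adjusted p = 0.0156) and in both fractions of control tumours (−1.01 and −1.26). It did not pass in EpCAM- cells of depleted tumours (−0.39 ± 0.18, adjusted p = 0.0901). Ppp1r15a was lower in EpCAM+ cells of depleted tumours (−1.11 ± 0.25, adjusted p = 0.000775) and did not pass in the other 3 groups. In the same group Maff (−0.77) and Dusp5 (−0.66) were lower than in culture. Gadd45b was lower in EpCAM- cells of depleted tumours (−0.63) and higher in both fractions of control tumours (1.00 and 1.33). Nr4a1 and Nr4a2 did not pass in EpCAM+ cells of depleted tumours (−0.06 ± 0.50, adjusted p = 0.952 and −0.78 ± 0.43, adjusted p = 0.154), the only tumour group in which neither was called. With 1 culture left out, several calls in depleted tumours were lost. Without culture 1 these were Myc (−0.50, adjusted p = 0.141), Ier5 (0.87, 0.0572) and Dusp5 (−0.71, 0.145) in EpCAM+ and Fosl1 (−0.98, 0.0755), Dusp2 (8.05, 0.132), Dusp4 (0.60, 0.129), Dusp5 (1.04, 0.0521) and Ier3 (0.88, 0.0553) in EpCAM- cells. Without culture 2 they were Maff (−0.68, 0.121), Ier5 (0.72, 0.113) and Dusp5 (−0.65, 0.178) in EpCAM+ and Dusp2 (8.02, 0.142) and Ier3 (0.80, 0.078) in EpCAM- cells of depleted tumours, and Dusp4 in EpCAM+ cells of control tumours (−0.35, 0.329). Nr4a3 lost its call without either culture in 3 of the 4 groups, EpCAM- cells of depleted tumours being the other (adjusted p of 0.0519 to 0.197). Dusp5 in EpCAM+ depleted cells was also lost without library 3, 4 or 6 of that group (−0.66 to −0.58), and Dusp4 in EpCAM+ control cells without library 4 or 6 (−0.48 and −0.36). Without the filter on low counts Nr4a3 (4.92, adjusted p = 0.0696) and Dusp5 (−0.71, 0.0673) in EpCAM+ depleted and Dusp4 in EpCAM+ control cells (−0.51, 0.0528) were not called either. Dusp4 also lost this call with only the groups compared (adjusted p = 0.0906) and without both control libraries numbered 6 (0.0657).

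Other genes of the same pathways were counted for context, from lists chosen by function. Their counts in the EpCAM contrast are read against all features, of which 14.3% were called higher and 14.3% lower in depleted and 13.4% and 14.5% in control tumours. Of 30 other early response genes, 18 were higher and 1 lower in EpCAM- cells of depleted tumours, against 7 and 3 in control tumours. Sgk1, a serum-induced kinase, had a log2 fold change of 1.96 ± 0.20 (adjusted p = 2.46e-08) in depleted tumours, Mcl1, which opposes apoptosis, one of 0.94 ± 0.12 (adjusted p = 1.48e-06) and Tob1, an antiproliferative relative of Btg2, one of 1.29 ± 0.17 (adjusted p = 1.65e-06). In EpCAM+ cells 19 of the 30 were higher and 3 lower in control than in depleted tumours, where 22.4% and 17.6% of all features were. Depending on the group, 14 to 22 of them were higher than in culture, where 20.9% to 27.7% of all features were. Of 13 other chaperones and heat shock factors, by contrast, 4 or 5 were higher and 6 or 7 lower than in culture. Of all features 18.6% to 24.2% were lower. Hspd1, the mitochondrial Hsp60 (−1.09 ± 0.09, adjusted p = 1e-09), and the Hsp70 relative Hspa4 (−1.0 ± 0.10, adjusted p = 2.22e-08) were lower than in culture in EpCAM+ cells of depleted tumours, where the small heat shock protein gene Hspb1 was higher (3.37 ± 0.38, adjusted p = 7.7e-08).

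Upstream factors and cytoskeletal targets were counted in the same way, and no test compared the lists. Of 12 genes for SRF, its cofactors and CREB factors 4 were higher and 0 lower in EpCAM- cells of depleted tumours, and 2 were higher and 1 lower in control tumours. Those called in depleted tumours included Elk1 (0.49 ± 0.10, adjusted p = 0.000529), Elk4 (0.50 ± 0.11, adjusted p = 0.001) and Crem (0.68 ± 0.18, adjusted p = 0.00455). Srf itself had log2 fold changes of 0.12 ± 0.13 (adjusted p = 0.546) in depleted and −0.01 ± 0.13 (adjusted p = 0.974) in control tumours, and Hsf1 had 0.16 ± 0.08 (adjusted p = 0.141) and 0.09 ± 0.08 (adjusted p = 0.441). Of 20 genes of the ERK cascade and its feedback, 5 were higher and 3 lower in depleted and 10 and 3 in control tumours. The 10 of 20 higher in control tumours lie well above the 13.4% of all features. Spry1, a feedback inhibitor of receptor signalling, was lower in EpCAM- cells of depleted (−0.91 ± 0.12, adjusted p = 2.05e-06) and higher in those of control tumours (0.85 ± 0.12, adjusted p = 6.99e-06). Of 13 genes of the p38 and JNK pathways 4 were higher and 2 lower in depleted and 3 and 2 in control tumours. Of 12 cytoskeletal targets of SRF and MRTF 3 were higher and 2 lower in depleted tumours, with Vcl at 1.08 ± 0.11 (adjusted p = 3.34e-08) and Tpm2 at −1.06 ± 0.09 (adjusted p = 2.59e-09), and 3 and 4 in control tumours.

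Markers of other cells and of RNA quality were examined in the same libraries. The summed level of 18 macrophage and monocyte markers was 297 to 390.1 CPM in EpCAM+ and 204 to 433 CPM in EpCAM- cells of depleted tumours, 179.6 to 365 and 111 to 165 CPM in those of control tumours, and 102 to 108 CPM in the cultures, where C1qa, Mrc1, Itgam, Fcgr1, Ms4a7 and Ccr2 were at 0. In EpCAM- against EpCAM+ cells of depleted tumours 2 of the 18 were higher and 2 lower, and in control tumours 1 and 10. Against culture 15 were higher and 1 or 2 lower in depleted tumours and EpCAM+ control cells, and 10 and 1 in EpCAM- control cells. Of all features 20.9% to 27.7% were higher and 18.6% to 24.2% lower. The median log2 fold changes were 7.2 and 7.46 in EpCAM+ and EpCAM- depleted cells and 5.22 and 3.38 in control ones. In EpCAM- cells 14 were lower and 0 higher in control than in depleted tumours (21.8% and 23.2% of all features). Sums of 10 fibroblast markers were 78.5 to 231 CPM in EpCAM+ and 168 to 251 CPM in EpCAM- cells of depleted tumours, against 1229 to 3240.3 and 1293 to 5050.2 CPM in control tumours. Those of 10 pericyte and smooth muscle markers were 105 to 203 CPM in EpCAM+ and 19.6 to 47.9 CPM in EpCAM- cells of depleted tumours, without overlap, and 421 to 913 and 581 to 1691 CPM in control tumours. Of the 9 that could be tested, 3 were higher and 2 lower in EpCAM- cells of depleted tumours. In control tumours 1 was higher and 4 lower, although the sums reached higher values in EpCAM- cells. Sums of 6 dendritic cell markers were 2.79 to 9.91 CPM in depleted and 32.5 to 55.2 CPM in control tumours, and those of 6 erythroid markers 3.11 to 19.8 CPM in depleted tumours and at most 0.822 CPM in control tumours. Sums of 8 neutrophil markers were 8.87 to 22.7 CPM in depleted and 2.34 to 4.92 CPM in control tumours, and those of 6 B cell and 6 adipocyte markers reached at most 13.4 and 6.3 CPM. Sums of 12 endothelial markers lay between 19.5 and 95.1 CPM in the tumours, and those of 12 T and NK cell markers stayed at or below 3.62 CPM in every library. The labelled cell type was described by 8 epithelial genes, which summed to 10374 to 11173 CPM in EpCAM+ and 3850 to 5424 CPM in EpCAM- cells of depleted tumours and to 5960 to 7724 and 1024 to 1653 CPM in those of control tumours. The 8 include Epcam, the gene of the protein that parted the fractions, so a part of this difference may follow from the sort. Mitochondrial genes took 0.295% to 0.604% of counts, and 6 of the 7 that could be tested were lower in EpCAM- cells of depleted tumours. The part of these differences in the levels of the 37 genes was not tested.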

How the data were processed

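RNA from 26 samples was amplified with the SMARTer v4 kit and sequenced as single reads of 50 bases, per the labels' protocols. The number of PCR cycles of each library is not in the labels, and neither the strand nor single molecules are marked by the kit. The table used is the authors' deposited one of raw counts of reads per gene. The submitters' processing notes name STAR, DESeq2 1.22.2 and build mm9. Not given in the sources used here were the program that counted the reads, its annotation and its use of strand. A second, normalized table was not used. Totals were 17559520 to 38740143 counts per library, and the median biological coefficient of variation was 0.22.

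The 37 genes and the lists of context genes and markers were chosen with earlier results of these data known. Members were matched by Ensembl identifier through GENCODE M21, whose build differs from mm9, so no coordinates come from the files. Groups were taken from sample titles. Counts as deposited were normalized with edgeR 4.0.16 (TMM) under R 4.3.3 and filtered by its group filter, which left 16637 of 47730 features. All 26 libraries entered 1 robust quasi-likelihood fit, in which each group had its own mean. The 9 contrasts were tested, each adjusted by Benjamini-Hochberg over all features, with a threshold of 0.05. Levels are CPM, and log2 CPM used a prior count of 2. Standard errors were derived from the test statistic. Named members are those of all 37 genes, with values by library for up to 3 per role with the smallest p in the depleted contrast, and for Fos, Jun, Egr1, Dusp1, Atf3, Myc, Hspa1a and Hspa1b. Context genes are those with the smallest p in their list, with Srf and Hsf1.

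The design describes both fractions as sorted from each tumour, although no label says that the library number marks the tumour, and the data were checked for this. Over 9104 features with a mean log2 CPM over 3, deviations of same-numbered libraries correlated at 0.12 to 0.35 in depleted tumours, all 6 over 0.1, and at 0.05 to 0.41 in control tumours, 5 of 6 over 0.1. Fits with the number as a block (24 tumour libraries, 14485 features) are therefore given beside the results of both treatments. Over all tested features the correlations were 0.02 to 0.05 and 0.05 to 0.17, and the feature threshold was chosen after seeing the data. Alternatives were DESeq2 1.42.0, median-of-ratios factors, no filter, only the groups compared, the replicate block, each library left out and, added after seeing the data, both control libraries with number 6 left out. The scripts were tested on simulated data.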

Additional observations from a re-analysis of the deposited data

Results flagged for a closer look

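For 24 of the 37 genes the EpCAM contrast itself differed between control and depleted tumours, by edgeR's test of the difference (control minus depleted, log2 scale). Among the AP-1 and related genes the differences were −0.98 for Fos, −1.13 for Fosb, −0.62 for Fosl2, −0.79 for Jun, −0.73 for Junb, −0.80 for Jund, −1.41 for Atf3 and −1.16 for Maff. Among the zinc finger factors they were −1.12 for Egr1, −1.07 for Egr2, −1.18 for Klf2, −1.52 for Klf4, −1.31 for Klf6 and −0.55 for Klf10. The nuclear receptors Nr4a1 and Nr4a2 differed by −2.77 and −1.95, and the phosphatases Dusp1 and Dusp5 by −1.07 and −1.32. Of the other early response genes, Ier2 differed by −0.87, Ier5 by −1.61, Socs3 by −1.0, Csrnp1 by −1.15 and Ppp1r15a by −0.76. Gadd45b alone differed in the other direction, by 0.69. Treatment and day cannot be told apart in these values.

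In 6 of the 148 groups of 6 libraries, 1 library stood far from the other 5 (4.05%, where chance gives about 1 in 20). Maff was at 16.6 CPM in EpCAM-positive depleted library 2, against 11.1 to 12.4 CPM in the others. Egr3 was at 4.26 CPM in EpCAM-negative control library 2, against 7.0 to 8.40 CPM. Nr4a3 was at 1.08 CPM in EpCAM-negative control library 5, against 0.225 to 0.390 CPM. The Hsp70 genes were low in the control libraries with number 6. Hspa1a was at 41.4 CPM in EpCAM-positive library 6, against 66.7 to 81.2 CPM. Hspa1b was at 404 CPM in EpCAM-positive library 6, against 571 to 663 CPM, and at 257 CPM in EpCAM-negative library 6, against 364 to 437 CPM.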

How the results depend on the processing

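None of the alternatives tried turned the direction of a called member. With DESeq2, 330 of 333 tests of single members kept their call (higher, lower or not passed) and 3 gained one. Directions of members called in neither fit were not compared. With median-of-ratios factors 331 of 333 did (Socs3 and Gadd45b in the control EpCAM contrast lost theirs), without a filter on low counts 317 of 333 (16 lost), and with only the groups compared 320 of 326 (3 lost, 3 gained). The count of members called in the control EpCAM contrast, 11, was 7 (4 higher, 3 lower) without a filter, 10 (5 and 5) with only the groups compared, and 8 (3 and 5) without both control libraries numbered 6. That last alternative kept 212 of 222 tests.

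With the replicate block, 32 members were called in the depleted EpCAM contrast (29 higher, 3 lower) and 29 in the difference of contrasts (1 and 28). In control tumours the block called 21 (11 higher, 10 lower) in place of 11, although the pair numbered 6 correlated at only 0.05. It changed the calls of single members named with it in the results, lost none and changed no other. Control and depleted tumours are different mice, and cultures have no tumour, so no block was made there.

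Leaving out each library in turn, members called ranged from 27 to 29 (EpCAM contrast, depleted), 8 to 13 (control), 20 to 27 (difference), 31 to 33 and 15 to 19 (control against depleted in EpCAM-positive and EpCAM-negative cells), and, against culture, 24 to 28 and 29 to 35 in depleted and 30 to 32 and 31 to 32 in control tumours. Of 3848 such tests 3675 kept their call, 139 lost and 34 gained one. Nr4a3 and Dusp2, at about 1 CPM or less in most libraries, are limited by depth.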
